A study of Epinephelus fuscoguttatus x Epinephelus lanceolatus with 9 samples.

Results

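The 3 SBM libraries of a 9-library RNA-seq study of fish intestine were set against its 3 Drug and 3 FM libraries as 1 body. The fish is the pearl gentian grouper, bred by crossing Epinephelus fuscoguttatus with Epinephelus lanceolatus for aquaculture. A gene was counted as standing apart when all 3 SBM values lay above, or all 3 lay below, the other 6 values. Of 17731 tested genes, 1088 (6.14%) stood apart, 546 of them higher and 542 lower in SBM. The short forms SBM and FM are widely used for soybean meal and fish meal in fish feeding work, although neither is spelled out in the labels. The labels call the remaining group Drug, and the title of the series names the herb Lithospermum erythrorhizon. Diet composition, dose, duration, age, sampling time and gut segment are not stated, and neither is anything that the 3 groups share besides the hybrid and the tissue. Nothing states that the libraries of a group were made from separate fish, so the p-values below describe the spread between libraries, which may be technical.

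The gut lining of a fish digests and absorbs the meal and renews itself from dividing cells, and its cells adjust gene expression to the nutrients that reach them. When insulin and amino acid signals are low, FOXO transcription factors and reduced TOR kinase activity are known to raise genes of growth restraint and autophagy, the breakdown of a cell's own parts in lysosomes. Kinases and phosphatases that act on translation initiation factors set how much protein is made, and the ring-shaped chaperonin folds newly made actin and tubulin. These are background facts from other animals, mostly mammals and yeast, and are not results of these libraries.

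The libraries held total counts of 32866956 to 35481806 and 20150 to 20588 genes with a count. Transcripts of the intestinal epithelium were present in all 9, with cdh17, an adhesion protein of enterocytes, between 797 and 1899.7 CPM (read counts set to a common library size, with TMM factors). FM replicate 3 stood apart in content: the hepatocyte list summed to 25610 CPM there (list sums carry no scaling factor), against 71.8 to 1341 CPM in the other 8 libraries. SBM replicate 1 held the most transcripts of immediate early genes, which respond within minutes to stimulation, at 4076 CPM against 908.9 to 2114 CPM in the other 8. The SBM libraries also differed in content among themselves. Lysosome-rich enterocyte genes summed to 13540, 37770 and 23320 CPM in SBM replicates 1 to 3, against 14890 to 18730 CPM in Drug and 27830 to 39030 CPM in FM. Pancreatic acinar genes summed to 2822, 634.4 and 607.9 CPM in SBM, against 522.9 to 2462 CPM in Drug and 256.5 to 2435 CPM in FM. On the log2 CPM scale the SBM libraries correlated at 0.937 to 0.976 among themselves and at 0.904 to 0.979 with the Drug and FM libraries. Of 13 cell type lists, 0 had sums that put the 3 SBM libraries outside the range of the other 6. Enterocyte genes summed to 4421 to 7321 CPM in SBM, 9839 to 11620 CPM in Drug and 3463 to 4408 CPM in FM, and smooth muscle genes to 18990 to 34940, 14210 to 20810 and 12780 to 26420 CPM in the same groups. Although its sums overlapped, the smooth muscle list leaned to SBM. Of its 24 tested genes, 23 had a positive log2 fold change over the other groups, with a median of 0.51. At an unadjusted p under 0.05, 11 were higher and 0 lower, beside 1450 and 983 of all 17731 tested genes. DESeq2 called 1 of the 24 higher, beside 383 of all tested genes. The 1 member that stood apart higher was synpo2b, beside 3.08% of all tested genes. The smooth muscle median was 0.31 without SBM replicate 2 and 0.36 with library totals alone. Without SBM replicate 3, FM replicate 2 and SBM replicate 1, 10, 5 and 2 of its genes stood apart. In the same settings 4.86%, 3.91% and 8.32% of all tested genes stood apart higher and 4.43%, 3.85% and 8.9% lower. The 2 of 24 without SBM replicate 1 thus show no clear excess over all genes. The part of smooth muscle RNA in the results below was not tested. In whole tissue, fewer cells of a type cannot be told apart from less RNA per cell.

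Few differences passed a test corrected over all genes. Against the mean of the Drug and FM groups, edgeR's quasi-likelihood test with Benjamini-Hochberg adjustment called 1 gene, 0.00564% of the 17731 tested, and that gene was lower in SBM. No gene was called higher, while 1450 higher and 983 lower genes had an unadjusted p under 0.05. DESeq2 called 383 genes higher and 238 lower, and 426 of these 621 stood apart, whereas limma called 0 on log2(FPKM + 1) and 1, the same gene as edgeR, on log2(FPKM + 0.1). At a looser adjusted p under 0.1, edgeR listed 54 genes, 48 higher and 6 lower, of which 48 stood apart. With the replicate number as a block, edgeR called 6 genes higher and 1 lower, and 4 of the 7 stood apart. Among the 6 were tp53inp1, ddit4, sqlea and msmo1, with edgeR adjusted p = 0.0286, 0.0113, 0.0113 and 0.0143 in that fit. Of these, sqlea and msmo1 did not stand apart. Their log2 fold changes in that fit were -0.65 and -0.02 against Drug and 7.08 and 5.17 against FM. Their rise was thus shared with Drug. The non-overlap and the test read the same values, so their joint count adds no separate evidence.

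The genes that stood apart made up 6.14% of those tested, 3.08% higher and 3.06% lower. That even split rested on the scaling: all 3 SBM libraries had lower TMM factors, 0.8759, 0.9819 and 0.9524, than any of the Drug libraries, at 0.9987 to 1.021, or the FM libraries, at 0.9907 to 1.117. With library totals alone, 194 genes stood apart higher and 1183 lower, and the median log2 fold change of all genes was -0.12 instead of 0.02. Fewer libraries make the rule easier to meet: with 1 library left out, 1336 to 3113 genes stood apart, the most without SBM replicate 1 (1504 higher and 1609 lower), then 2099 without SBM replicate 2 and 1678 without SBM replicate 3. Among the higher genes the median log2 fold change was 0.57, with a range of 0.12 to 3.45, and 95 of the 546 exceeded 1. Among the lower genes the median was -0.59, with a range of -4.35 to -0.18, and 81 of the 542 lay below -1. At the edge of the rule, pvrl2l entered with a lowest SBM value of 52.2 CPM against a highest other value of 52.2 CPM, while wbp1la, with both at 11.2 CPM, stayed out. On the lower side pde7a entered, with a highest SBM value of 10.2 CPM against a lowest other value of 10.3 CPM, and fxn, with both at 11.7 CPM, stayed out.

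The Drug libraries were not uniformly at the FM level for these genes. Drug and FM values overlapped for 433 of the 546 higher genes (79.3%) and for 405 of the 542 lower genes (74.7%), against 67.2% of all tested genes, and a rule that needs SBM outside both groups favours such overlap. The Drug mean lay between the SBM and FM means for 295 of the higher genes and beyond the FM mean for 251. For the lower genes these counts were 349 and 193. Against FM alone, 24 of the higher genes rose, beside 79 (0.446%) of all tested genes, and 8 of the lower genes fell, beside 26 (0.147%) of all tested genes; both directions together made 105 (0.592%). Against Drug alone, 5 higher genes rose, beside 7 (0.0395%) of all tested genes, and no gene fell. In Drug against FM, 777 genes (4.38%) passed. All 3 pairs of same-numbered SBM and FM libraries deviated together, and with the replicate number as a block 210 genes rose and 85 fell against FM, 50 and 23 of them among the higher and lower genes that stood apart. Genes that passed against FM in that fit but not without the block included ddit4, hlfb, pdk2a, irf2bp2b, klf11b, il12rb1 and ss18 (edgeR adjusted p = 0.0327, 0.0229, 0.0328, 0.0361, 0.0394, 0.0435 and 0.0484). Against Drug the same fit called ddit4 alone (edgeR adjusted p = 0.0115) and 0 of the 7 genes called without the block. Comparisons that share the SBM libraries are given side by side and are not independent of each other. The rule that picked the genes that stood apart reads the same values. It therefore favours their calls against FM and against Drug, with and without the block.

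**Figure D1:**
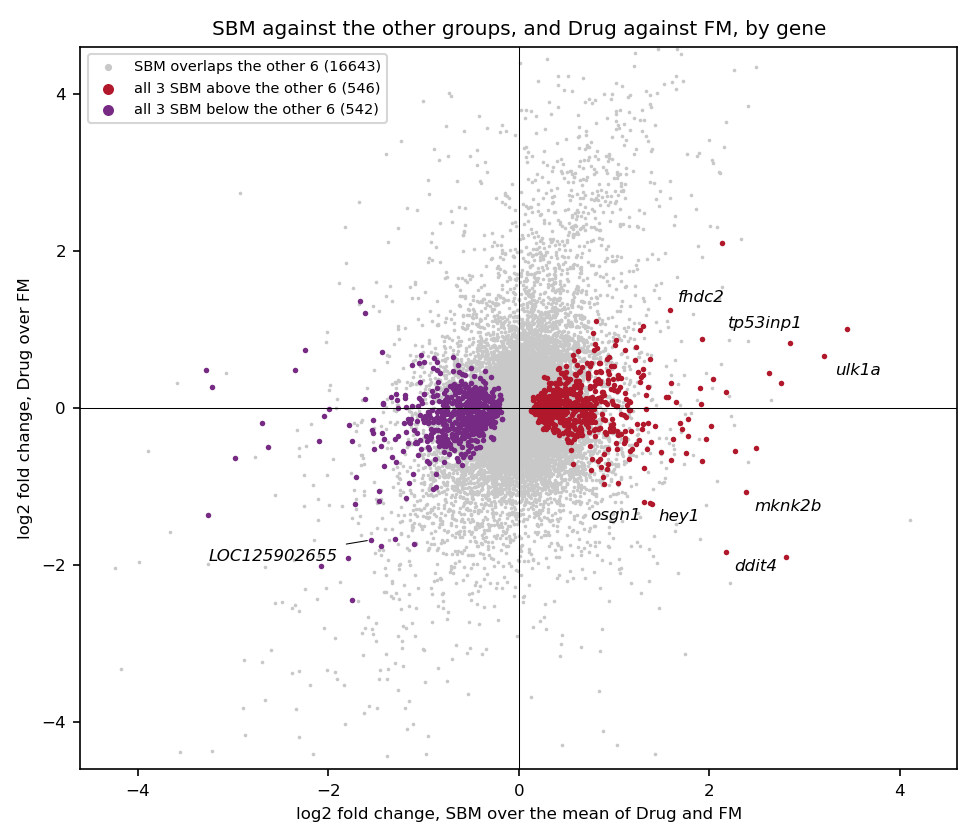
Each point is a gene, placed by the log2 fold change of SBM over the mean of Drug and FM (horizontal axis) and of Drug over FM (vertical axis). Red and purple points are the 546 and 542 genes whose 3 SBM libraries lay above or below the other 6, grey points are the rest, and 146 genes outside ±4.6, 1 of them coloured, are not drawn. The coloured points lie along the horizontal axis on both sides, which the rule favours because it needs SBM outside both groups. Labelled genes away from the axis include mknk2b, hey1 and osgn1 below it and fhdc2 above it.

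The gene with the smallest p among those that stood apart higher was mknk2b, which encodes a MAP kinase-interacting kinase that phosphorylates the cap-binding factor eIF4E. It had 881, 711 and 658 CPM in SBM, against 47.1, 134 and 115 CPM in Drug libraries and 198, 207 and 218 CPM in FM libraries. Every SBM library was over 3 times as high as any other, and the Drug libraries were the lowest. The log2 fold change over the other groups was 2.39, SE 0.27, adjusted p = 0.0546, just over the threshold. In the pairwise tests it rose against Drug (log2 fold change 2.92, edgeR adjusted p = 0.0426) and missed against FM (log2 fold change 1.85, edgeR adjusted p = 0.0513). Next to it in function is ppp1r15b, the constitutive subunit that directs a phosphatase to the initiation factor eIF2-alpha. Its values were 427, 194 and 213 CPM in SBM, against 53.7, 79.2 and 68.5 CPM in Drug libraries and 99.9, 114 and 85.9 CPM in FM libraries, with replicate 1 highest in SBM (log2 fold change 1.76, SE 0.25, adjusted p = 0.058). The mRNA decapping partner pnrc2 had 561, 428 and 494 CPM in SBM, against 167, 201 and 201 CPM in Drug libraries and 389, 375 and 346 CPM in FM libraries, so FM lay nearer to SBM than Drug did. It rose against Drug (log2 fold change 1.38, edgeR adjusted p = 0.0426) and fell in Drug against FM (log2 fold change -0.96, edgeR adjusted p = 0.0182).

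Among the 12 leading higher genes, yap1, hey1, klf11b, irf2bp2a and irf2bp2b are known as regulators of transcription, which were not counted as a list. The Hippo pathway coactivator yap1, which drives growth and repair of the gut epithelium in mice, had 24.3, 32.4 and 28.1 CPM in SBM, against 9.3, 10.9 and 10.5 CPM in Drug libraries and 14.3, 11.2 and 15.3 CPM in FM libraries. Without a replicate block it was the only gene past the threshold in both pairwise comparisons, with a log2 fold change of 1.47 over Drug (edgeR adjusted p = 0.0426) and 1.06 over FM (edgeR adjusted p = 0.0426), although it missed in the joint comparison (log2 fold change 1.26, SE 0.15, adjusted p = 0.0546). The repressor gene hey1, which Notch signalling induces, had 9.59, 7.44 and 10.5 CPM in SBM, against 2.02, 2.37 and 2.55 CPM in Drug libraries and 5.44, 6.28 and 4.3 CPM in FM libraries. Drug libraries were lowest here as well, and hey1 rose in SBM against Drug (1.98 on the log2 scale, edgeR adjusted p = 0.0426) and missed against FM (0.78, edgeR adjusted p = 0.118). Drug and FM overlapped for the Krüppel-like factor klf11b and for irf2bp2a and irf2bp2b, a pair of corepressors of interferon regulatory factor 2. The klf11b values were 88.6, 91.6 and 87.7 CPM in SBM, against 40, 50.6 and 45.3 CPM in Drug libraries and 44.4, 49.7 and 57 CPM in FM libraries. The corepressor genes had log2 fold changes of 0.98 and 0.88 (edgeR adjusted p = 0.058 and 0.058), and as named copies of 1 ancestral gene they may share reads.

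The oxidative stress growth inhibitor osgn1 had 117, 89.8 and 111 CPM in SBM, against 24.8, 33.7 and 25.7 CPM in Drug libraries and 74.7, 63 and 55 CPM in FM libraries, and Drug again lay below FM. It rose against Drug (1.91 on the log2 scale, edgeR adjusted p = 0.0426), and it fell in Drug against FM (-1.19, edgeR adjusted p = 0.0182). In contrast, map1lc3b, the ubiquitin-like protein that coats autophagosomes, ran in steps with Drug in the middle: 94.3, 126 and 131 CPM in SBM, against 63.1, 78 and 68.6 CPM in Drug libraries and 39.6, 36.4 and 49.4 CPM in FM libraries. It rose against FM (1.49, edgeR adjusted p = 0.0283), and against Drug the difference of 0.75 missed (edgeR adjusted p = 0.186). The formin-domain gene fhdc2 had the same order, at 21.3, 18.4 and 27.105 CPM in SBM, against 7.5, 12.6 and 14.2 CPM in Drug libraries and 5.14, 4.19 and 5.1 CPM in FM libraries. It rose in SBM against FM (2.21, edgeR adjusted p = 0.0283) and in Drug against FM (1.25, edgeR adjusted p = 0.0342). The small GTPase gene arl4aa had 85.1, 59.6 and 72.2 CPM in SBM, against 28.3, 32.1 and 35.9 CPM in Drug libraries and 33.9, 34.1 and 30.1 CPM in FM libraries, with Drug and FM overlapping, and it rose against FM (1.14, edgeR adjusted p = 0.0318).

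**Figure D2:**
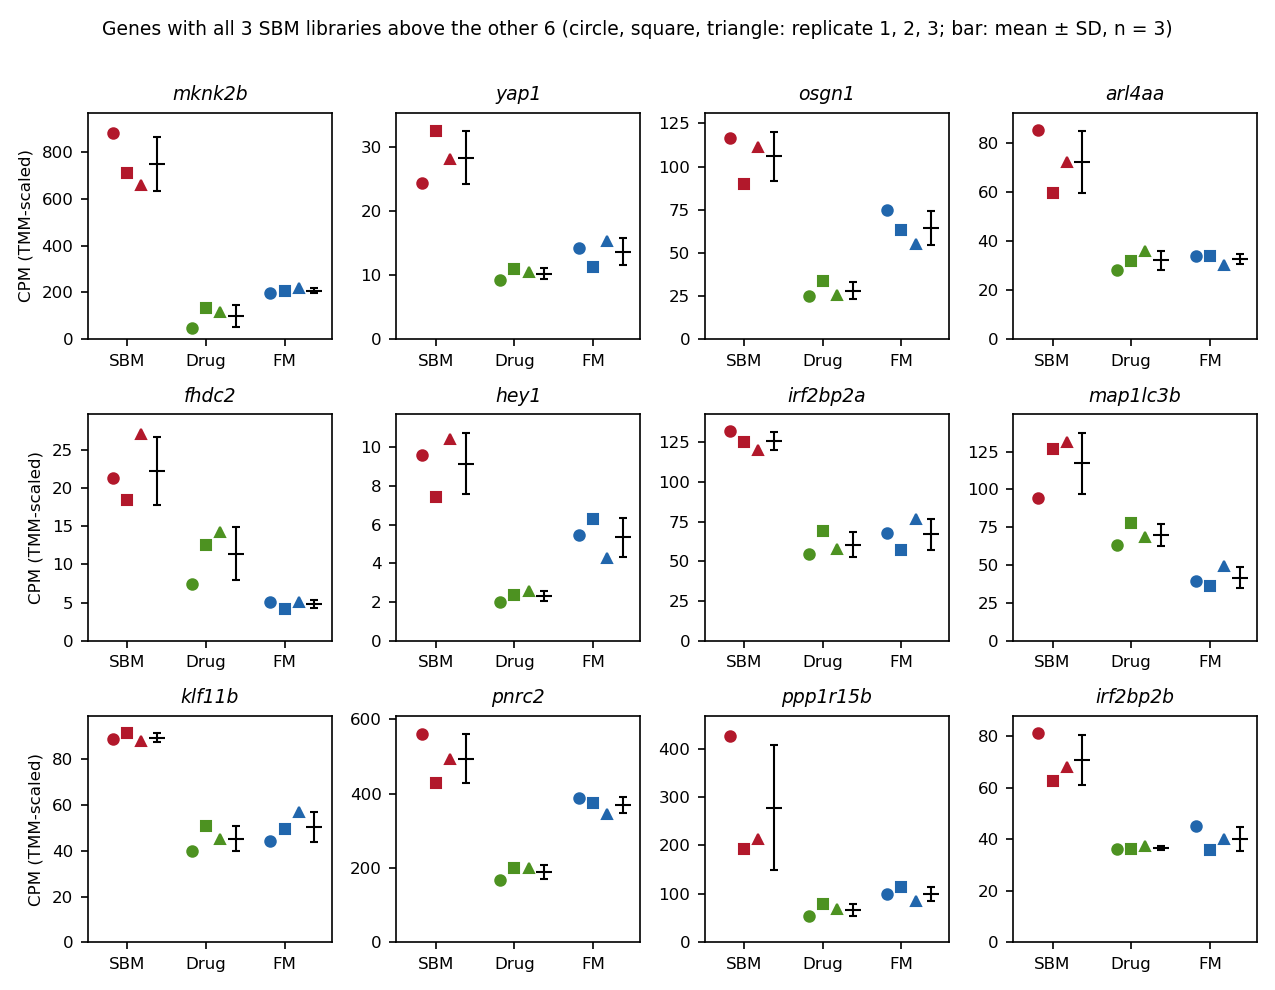
TMM-scaled CPM in each library for the 12 leading genes with all SBM libraries above the other 6. Circles, squares and triangles are replicates 1, 2 and 3, and bars show the mean ± SD (n = 3). SBM is separated from both groups in every panel, while Drug lies below FM for mknk2b, yap1, osgn1, hey1, pnrc2 and ppp1r15b and above FM for fhdc2 and map1lc3b.

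The widest gaps between the lowest SBM value and the highest other value belonged to mknk2b, ppp1r15b and a further 3 genes. The stress-induced autophagy gene tp53inp1 had 108, 142 and 256 CPM in SBM, against 14.4, 30.4 and 48.9 CPM in Drug libraries and 17.3, 11.2 and 24.2 CPM in FM libraries (log2 fold change 2.85, SE 0.40, adjusted p = 0.058), and it passed with the replicate block given above. It rose against FM (3.26, edgeR adjusted p = 0.0426). The SBM spread was wide, yet its lowest library was over 2 times as high as the highest Drug library. Cyclin G2 (ccng2), an atypical cyclin that restrains the cell cycle, had 104, 113 and 110.4 CPM in SBM, against 14.8, 44.5 and 33.3 CPM in Drug libraries and 48.1, 38.5 and 35.1 CPM in FM libraries (log2 fold change 1.62, SE 0.28, adjusted p = 0.0891). Pyruvate dehydrogenase kinase pdk2a, which turns pyruvate away from the citrate cycle, had 32.5, 43 and 32 CPM in SBM, against 8.07, 15.7 and 15.8 CPM in Drug libraries and 8.24, 8.86 and 14.7 CPM in FM libraries (log2 fold change 1.60, SE 0.25, adjusted p = 0.0771). Ranges of Drug and FM overlapped for all 3.

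The 12 leading lower genes had log2 fold changes of -0.60 to -1.33, against 0.88 to 2.39 for the 12 leading higher genes. First by p among named genes was crebzf, a basic leucine zipper cofactor, with 19.9, 15.7 and 14.8 CPM in SBM, against 27.9, 27.104 and 29.9 CPM in Drug libraries and 36.5, 35.5 and 34.6 CPM in FM libraries. It stepped up through Drug to FM without overlap, and its log2 fold change was -0.92, SE 0.13, adjusted p = 0.058. The Ras-family gene diras1b had 2.81, 3.27 and 2.86 CPM in SBM, against 6.42, 6.18 and 5.61 CPM in Drug libraries and 8.84, 11.8 and 7.31 CPM in FM libraries (log2 fold change -1.33, SE 0.20, adjusted p = 0.058), in the same order of groups. Both fell against FM, by 1.08 and 1.64 on the log2 scale (edgeR adjusted p = 0.0283 for each), and neither passed against Drug (edgeR adjusted p = 0.123 and 0.156). The splicing-related nuclear protein pnisr had 28.6, 37.6 and 31.9 CPM in SBM, against 45.6, 50 and 53.6 CPM in Drug libraries and 58.9, 74 and 67.5 CPM in FM libraries and fell against FM by 1.03 (edgeR adjusted p = 0.0371). The mitochondrial fission gene mtfp1 had 3.93, 4.51 and 3.66 CPM in SBM, against 8.24, 7.41 and 6.31 CPM in Drug libraries and 12.5, 9.44 and 7.81 CPM in FM libraries and fell against FM by 1.3 (edgeR adjusted p = 0.0442).

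For trib2, tgfb3 and adnpa the Drug mean was the highest of the 3 groups. The pseudokinase gene trib2, a Tribbles family member, had 8.41, 5.97 and 6.61 CPM in SBM, against 16.5, 14.9 and 15.4 CPM in Drug libraries and 9.9, 11.6 and 9.58 CPM in FM libraries (log2 fold change -0.86, SE 0.16, adjusted p = 0.103). The growth factor tgfb3 had 12.3, 16.1 and 13.3 CPM in SBM, against 33.5, 22.4 and 30.3 CPM in Drug libraries and 20.4, 19 and 23.8 CPM in FM libraries (log2 fold change -0.83, SE 0.17, adjusted p = 0.121), with the Drug and FM ranges overlapping. The interleukin 12 receptor subunit il12rb1 was low throughout, at 2.47, 2.73 and 2.44 CPM in SBM, against 4.06, 4.89 and 5.4 CPM in Drug libraries and 4.73, 7.41 and 5.69 CPM in FM libraries (log2 fold change -1.07, SE 0.21, adjusted p = 0.114). The chromatin protein genes adnpa, hmga1a and ss18, the last a BAF complex subunit, had log2 fold changes of -0.79, -1.3 and -0.63 (edgeR adjusted p = 0.114, 0.116 and 0.126). The selenocysteine tRNA partner trnau1apb (-0.60) and the zinc finger gene znf1035 (-0.66) complete the 12, and the RNA-binding protein genes rbm15b and rbm12bb (-0.85 and -0.83) had gaps among the 5 widest. Scaled by library totals alone, all 24 leading genes still stood apart in the same direction. All 24 passed with DESeq2, 12 with the stricter filter, 9 without SBM replicate 1, and at most 4 in any of the others.

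**Figure D3:**
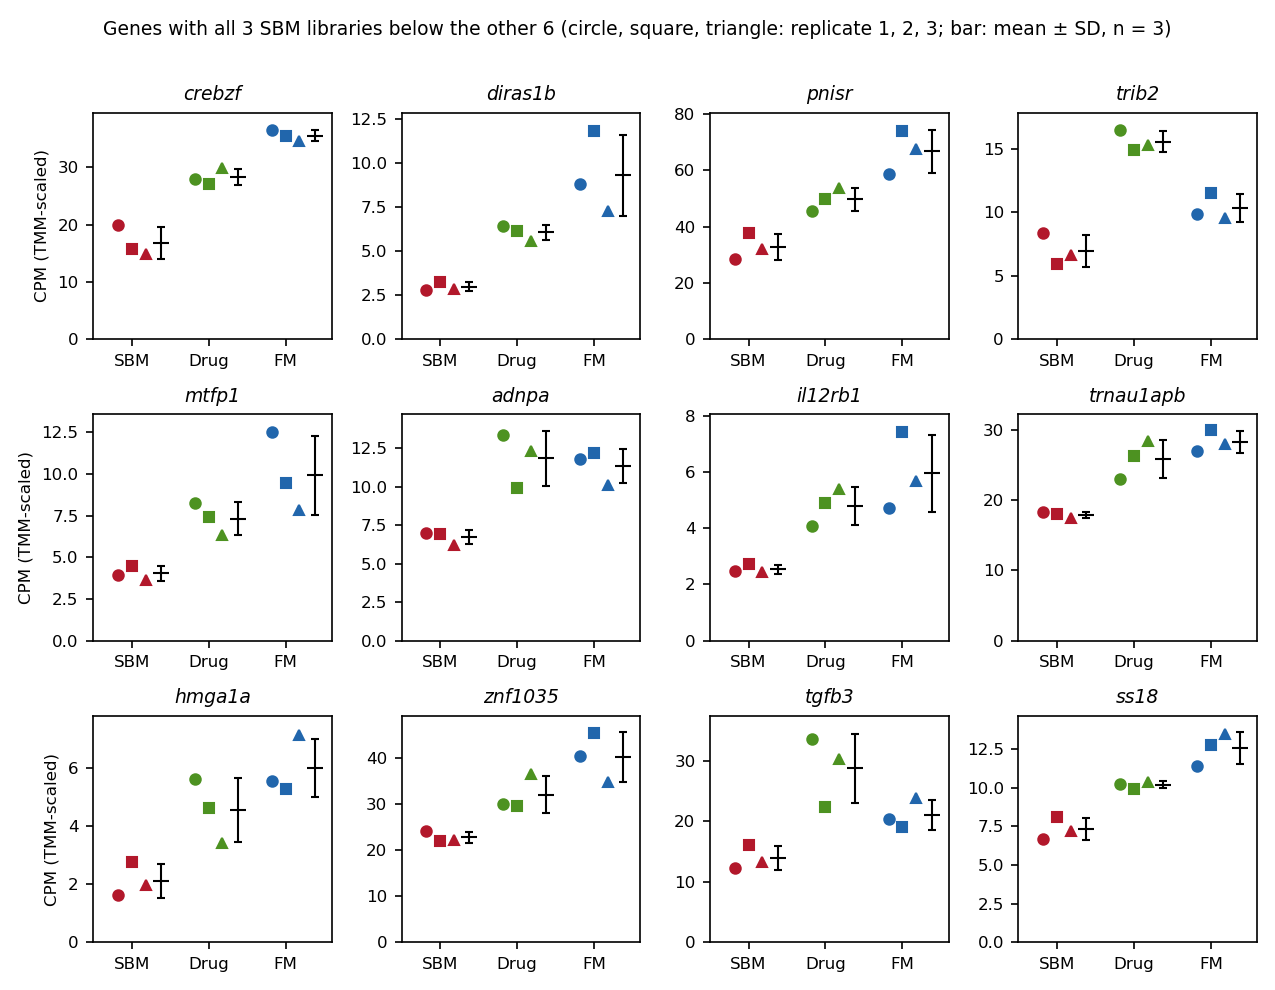
TMM-scaled CPM in each library for the 12 leading named genes with all SBM libraries below the other 6. Symbols and bars are as in the plot of higher genes. FM lies above Drug without overlap for crebzf, diras1b, pnisr and ss18, while Drug lies above FM without overlap for trib2.

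The single gene past the threshold, LOC125902655, has no name in the files. It had 14.3, 11.9 and 14.4 CPM in SBM, against 22.7, 22 and 21.5 CPM in Drug libraries and 67.7, 84.9 and 59.5 CPM in FM libraries, and its log2 fold change over the other groups was -1.55, SE 0.15, adjusted p = 0.0429. The Drug values lay far nearer to SBM than to FM. Against FM it fell by 2.39 on the log2 scale (edgeR adjusted p = 0.00273), against Drug the difference of -0.71 missed (edgeR adjusted p = 0.175), and it fell in Drug against FM by 1.68 (edgeR adjusted p = 0.00668). It was no longer past the threshold of the joint comparison without SBM replicate 2 or 3, FM replicate 1 or 2, or any 1 of the Drug replicates.

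The 41 gene lists were read by how many members stood apart, against the 3.08% and 3.06% of all genes. The lists were chosen with earlier results of these data known, so a share above these may partly come from that choice. In the joint comparison edgeR, with all 9 libraries, the default filter and no replicate block, called no member of any list, and limma called 0, so the lists below are given with their counts, higher first and lower second, at an unadjusted p under 0.05 and with DESeq2. Library totals alone move the median log2 fold change of all genes by -0.14, so counts under that scaling are given as well. Each setting has its own background: 1.09% of all tested genes stood apart higher and 6.67% lower with library totals alone, and 3.02% and 3.43% with the stricter filter. The shares were 8.32% and 8.9% without SBM replicate 1, 5.36% and 6.29% without SBM replicate 2, and 4.86% and 4.43% without SBM replicate 3. With 1 of the FM or Drug replicates left out they were 3.57% to 4.06% higher and 3.58% to 4.12% lower. The counts of members below under another setting are to be read against these shares. Of all 17731 tested genes, 1450 lay higher and 983 lower at an unadjusted p under 0.05, and DESeq2 called 383 higher and 238 lower. The unadjusted and DESeq2 counts of each list are to be read against these, and several lists lie near them. Some genes, such as ddit4, tp53inp1 and osgn1, are shared between lists, so the lists are not separate sets of genes. In the insulin, FOXO and TOR list, 4 of 43 tested genes stood apart higher and 1 lower, with a median log2 fold change of 0.30. Unadjusted, 16 lay higher and 3 lower, and DESeq2 called 9 higher and 2 lower. The insulin receptor substrate irs2b had 29.6, 24.5 and 29.1 CPM in SBM, against 6.11, 12 and 9.25 CPM in Drug libraries and 13.2, 10.8 and 15.4 CPM in FM libraries (log2 fold change 1.34, SE 0.20, adjusted p = 0.0698). The TOR inhibitor ddit4, which is also a glucocorticoid target, had 239.6, 474 and 432 CPM in SBM, against 20.2, 66.8 and 46.9 CPM in Drug libraries and 96.9, 231 and 151 CPM in FM libraries (log2 fold change 2.18, SE 0.39, adjusted p = 0.1), and it passed with the replicate block. Drug was lowest for ddit4, and one FM library came close to the lowest SBM library. Of the other members that stood apart, pdk2a and trib2 are given above and foxo4 had a log2 fold change of 0.77. Sestrin sesn1, which also restrains TOR, had 131, 473 and 351 CPM in SBM, against 68.6, 99.95 and 104 CPM in Drug libraries and 108, 109 and 156 CPM in FM libraries, so SBM replicate 1 overlapped FM. With library totals alone 3 stood apart higher and 2 lower, with a median of 0.17, and without SBM replicate 2 the median was 0.20. The count of 4 higher was 14 without SBM replicate 1 and 7 without SBM replicate 3, FM replicate 3 or Drug replicate 2, and the count of 1 lower was 4 without SBM replicate 1 and 2 without SBM replicate 3.

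Autophagy genes stood apart higher in 6 of 41 cases and lower in 0, with a median log2 fold change of 0.38. Unadjusted, 14 lay higher and 1 lower, and DESeq2 called 6 higher and 0 lower. The initiating kinase ulk1a had 9.45, 32.1 and 35.3 CPM in SBM, against 0.767, 6.92 and 2.79 CPM in Drug libraries and 2.41, 0.712 and 3.51 CPM in FM libraries (log2 fold change 3.21, SE 0.70, adjusted p = 0.15), low in the other groups and lowest of the SBM values in replicate 1. The cargo receptor sqstm1 had 412, 223 and 215 CPM in SBM, against 138, 138 and 108 CPM in Drug libraries and 160.3, 130.5 and 118 CPM in FM libraries (log2 fold change 1.1, SE 0.22, adjusted p = 0.116), here with SBM replicate 1 the highest. The members wipi2 and optn, a phosphoinositide-binding autophagosome factor and a cargo receptor, had log2 fold changes of 0.40 and 0.42, and map1lc3b and tp53inp1 are given above. Without SBM replicate 1, 19 of the 41 stood apart higher, and with library totals alone 4 did. The median was 0.24 with library totals alone and 0.23 without SBM replicate 2.

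The p53 response list had 4 of 24 genes apart higher (ccng1, ccng2, osgn1 and tp53inp1) and 2 lower (mdm4 and tigara), with a median of 0.32 that was 0.01 without SBM replicate 1. Unadjusted, 8 lay higher and 2 lower, and DESeq2 called 4 higher and 1 lower. The p53 inhibitor mdm4 had 40.7, 34.3 and 30.7 CPM in SBM, against 44.1, 48 and 48.1 CPM in Drug libraries and 53.1, 68.1 and 66.7 CPM in FM libraries (log2 fold change -0.62, SE 0.14, adjusted p = 0.15). Of the glucocorticoid response genes 3 of 22 stood apart higher and 0 lower, with a median of 0.54, 10 and 0 unadjusted, and 5 and 0 with DESeq2. Beside ddit4 these were fkbp5, a co-chaperone of the glucocorticoid receptor, and tsc22d3, known in mammals as GILZ. The fkbp5 values were 283, 459 and 473 CPM in SBM, against 46, 177 and 152 CPM in Drug libraries and 187, 233 and 216 CPM in FM libraries (log2 fold change 1.32, SE 0.36, adjusted p = 0.187). The summed levels of both lists put SBM apart. The p53 response genes summed to 1949 to 2095 CPM in SBM, 1311 to 1557 CPM in Drug and 1406 to 1633 CPM in FM. Glucocorticoid response genes summed to 2886 to 3502, 1347 to 2251 and 1963 to 2235 CPM in the same groups. These sums include the members that stood apart, such as ddit4, fkbp5 and tp53inp1, so they add no separate evidence for the lists. Immediate early genes were highest in SBM replicate 1, and their part in these results was not tested. Scaled by totals alone, 1 glucocorticoid response gene stood apart higher, with a median of 0.39, and the p53 list had 3 higher and 2 lower, with a median of 0.15. With SBM replicate 1 left out, the glucocorticoid median was 0.68 and 5 p53 response genes stood apart lower. Without SBM replicate 3 the p53 list had 7 higher and 4 lower and the glucocorticoid list 5 higher, and without Drug replicate 2 the glucocorticoid list had 6 higher.

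Clock genes stood apart higher in 4 of 32 cases and lower in 0, with a median of 0.33, 11 and 0 unadjusted, and 5 and 0 with DESeq2. The members were output and repressor genes: the D-box activator hlfb, the Rev-erb receptors nr1d2b and nr1d4b, and the repressor ciarta. The hlfb values were 74.5, 65.3 and 89.9 CPM in SBM, against 26.9, 37.9 and 45.6 CPM in Drug libraries and 18.6, 22.1 and 37.4 CPM in FM libraries (log2 fold change 1.31, SE 0.24, adjusted p = 0.11), and nr1d4b had 47.8, 29.4 and 18.8 CPM in SBM, against 10.3, 14.4 and 13.6 CPM in Drug libraries and 17.9, 17.6 and 16.6 CPM in FM libraries (log2 fold change 1.1, SE 0.25, adjusted p = 0.145). The median of the clock list was 0.16 against FM and 0.54 against Drug. In Drug against FM 0 of the 32 rose and 4 fell, beside 507 (2.86%) and 270 (1.52%) of all tested genes. The sampling time of each library is not stated. Without the TMM factors 2 clock genes stood apart higher and 1 lower, with a median of 0.18. Without SBM replicate 1 or SBM replicate 2, 8 stood apart higher, and without SBM replicate 1 or SBM replicate 3, 1 lower.

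**Figure D4:**
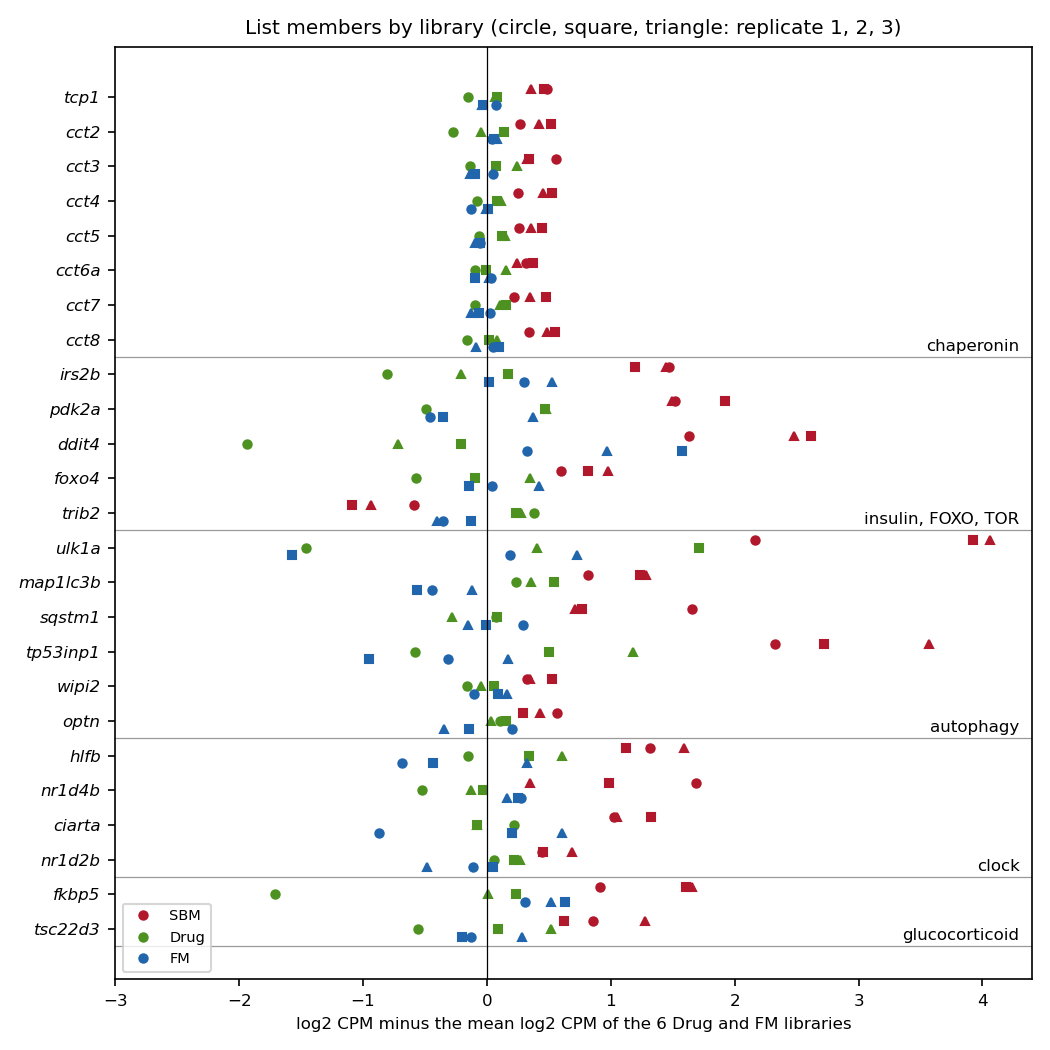
Each row is a gene and each symbol a library, placed by its log2 CPM minus the mean log2 CPM of the 6 Drug and FM libraries. Colours mark groups and shapes mark replicates 1 to 3. The 8 chaperonin subunits, a group picked after its values were seen, form a narrow band with SBM just outside the other values. In contrast, ulk1a, ddit4 and tp53inp1 spread widely, and trib2 runs the other way.

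The cytosolic chaperonin was singled out as a group after the values were seen, from list members that stood apart. Its subunits all lay slightly higher in SBM, which is a description and not a test. Of 40 heat shock and chaperone genes, 9 stood apart higher and 1 lower, with a median of 0.16, 11 and 1 unadjusted, and 4 and 1 with DESeq2. All 8 subunits of the cytosolic chaperonin (tcp1 and cct2 to cct8) were among the 9, with log2 fold changes of 0.31 to 0.46 and hsp90ab1 as the ninth. As an example, cct8 had 379, 439.8 and 419 CPM in SBM, against 268, 304 and 318 CPM in Drug libraries and 311, 320.1 and 283 CPM in FM libraries (log2 fold change 0.46, SE 0.12, adjusted p = 0.177). Drug and FM overlapped for each subunit. With library totals alone all 8 differences stayed positive, at 0.17 to 0.32, but only 2 of the 8 stood apart. The lower members of the list numbered 6 without SBM replicate 1, where its median was -0.09. Scaled by totals alone, the whole list had 2 higher and 1 lower members and a median of -0.0018, and the median was 0.25 and 0.27 without SBM replicate 2 and SBM replicate 3. The one lower member, dnajb9a, an endoplasmic reticulum cochaperone induced by unfolded protein, had 3.23, 2.01 and 2.38 CPM in SBM, against 3.98, 3.86 and 4.14 CPM in Drug libraries and 5.23, 5.27 and 4.1 CPM in FM libraries (log2 fold change -0.80, SE 0.21, adjusted p = 0.187).

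Differences of a similar size were seen in genes of protein synthesis. Of 74 cytosolic ribosomal protein genes, 15 stood apart higher and 0 lower, 72 had a positive log2 fold change and the median was 0.20, with 18 and 0 unadjusted and 0 with DESeq2. Without the TMM factors the median was 0.06, and 0 stood apart higher and 1 lower, so this count depended on the scaling. The stricter filter, which recomputes the TMM factors on fewer genes, gave 2 higher of 74, with a median of 0.19. Leaving out FM replicate 3 gave 53 of 74, and leaving out SBM replicate 1 gave 41. Transcripts of the mitochondrial genome leaned the other way. Of 13 genes, 12 lay lower in SBM and 0 stood apart, the median being -0.26, with 0 and 2 unadjusted and 0 with DESeq2. They made up 2.62%, 4.01% and 3.25% of the counts in SBM, against 4.22%, 3.65% and 3.86% in Drug libraries and 3.65%, 3.99% and 4.66% in FM libraries. SBM replicates 1 and 3 were the lowest of the 9 and SBM replicate 2 lay within the range of the others. The median was -0.15 without SBM replicate 1, -0.50 without SBM replicate 2, where 5 of the 13 stood apart lower, and -0.16 without FM replicate 3. The part of this share in the small differences of the chaperonin and ribosomal protein genes was not tested. Among 38 translation initiation genes, 5 stood apart higher, including mknk2b, eif3i and eif2s3, and 1 lower, with a median of 0.26, 12 and 1 unadjusted, and 3 and 0 with DESeq2. The lower one was eif2ak4, the kinase that senses uncharged tRNA, at 21.8, 19.2 and 20.8 CPM in SBM, against 24.3, 25.9 and 29.5 CPM in Drug libraries and 24.8, 30.3 and 31.7 CPM in FM libraries (log2 fold change -0.43, SE 0.13, adjusted p = 0.229). The elongation factor kinase eef2k did not stand apart: it had 87.5, 103 and 97.1 CPM in SBM, against 24, 37.3 and 38.9 CPM in Drug libraries and 98.9, 85.2 and 114 CPM in FM libraries, so Drug was low and SBM and FM overlapped. The list median was 0.07 against FM and 0.42 against Drug, so SBM lay near FM for this list. With library totals alone 1 of the 38 stood apart higher and 2 lower, with a median of 0.12, and without SBM replicate 1 the median was 0.16. Without FM replicate 2 the count was 8 higher, and without SBM replicate 1 it was 3 lower.

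Central carbon metabolism had 6 of 55 genes apart higher and 1 lower, with a median of 0.23, 14 and 2 unadjusted, and 4 and 1 with DESeq2. Enolase eno3 had 864, 651 and 708 CPM in SBM, against 435, 477 and 500.0 CPM in Drug libraries and 532, 628 and 537 CPM in FM libraries (log2 fold change 0.52, SE 0.13, adjusted p = 0.17), and pgk1, mdh2, cs, dldh and pklr had log2 fold changes of 0.33 to 0.50. The lower one was pdha1b, an E1 subunit of pyruvate dehydrogenase, the enzyme that kinases such as pdk2a switch off, at 7.05, 8.47 and 8.13 CPM in SBM, against 10.7, 9.98 and 11.3 CPM in Drug libraries and 10.2, 11 and 10.3 CPM in FM libraries (log2 fold change -0.42, SE 0.13, adjusted p = 0.236). Scaled by totals alone, 2 stood apart higher and 1 lower, with a median of 0.09. Without SBM replicate 1 there were 11 higher, while the median was 0.10; without SBM replicate 2 there were 2 lower. In the antioxidant list 4 of 42 stood apart higher and 1 lower, with a median of 0.08, 8 and 1 unadjusted, and 4 and 0 with DESeq2. The 4 include osgn1, which the p53 response list also counts. The peroxidase gpx1a had 288, 228 and 219 CPM in SBM, against 176, 164 and 159 CPM in Drug libraries and 199.7, 177 and 175 CPM in FM libraries (log2 fold change 0.49, SE 0.13, adjusted p = 0.187), and heme oxygenase hmox1a was on the lower side (-0.94). Without the TMM factors 1 of the 42 stood apart higher and 1 lower, and the median was -0.06, so its sign turned. The median was 0.04, 0.14 and 0.15 without FM replicate 2, SBM replicate 2 and FM replicate 3. Without SBM replicate 1, 7 of the 42 stood apart higher, and without SBM replicate 3, 3 stood apart lower.

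Junction and signalling lists held single members that stood apart in both directions. Of 32 junction genes, 3 stood apart higher and 1 lower, with a median of 0.19, 5 and 2 unadjusted, and 4 and 1 with DESeq2. The enterocyte cadherin cdh17 had 1577, 1599 and 1899.7 CPM in SBM, against 1529, 1313 and 1408 CPM in Drug libraries and 918, 848 and 797 CPM in FM libraries, so Drug was close under SBM and FM far below. It rose in SBM (0.99 on the log2 scale, edgeR adjusted p = 0.0283) and in Drug (0.73, edgeR adjusted p = 0.0243) against FM. The claudin cldn5a had 13, 10.5 and 13.2 CPM in SBM, against 3.72, 7.15 and 5.96 CPM in Drug libraries and 6.92, 5.77 and 7.78 CPM in FM libraries (log2 fold change 0.99, SE 0.21, adjusted p = 0.128). With library totals alone the list had 2 higher and 3 lower members and a median of 0.04, and the median was 0.12 and 0.10 without SBM replicate 1 and SBM replicate 2. Higher junction genes numbered 6 without SBM replicate 1 and 7 without SBM replicate 2, and lower ones 3 without SBM replicate 1 and 2 without Drug replicate 2. In the Hippo list the higher yap1 stood beside a lower tead1b, a DNA-binding partner of the YAP protein, with 11.3, 14.1 and 15.4 CPM in SBM, against 21.7, 24.4 and 28 CPM in Drug libraries and 15.7, 18.8 and 19.4 CPM in FM libraries (log2 fold change -0.63, SE 0.15, adjusted p = 0.17). In the Notch list the higher hey1 stood beside a lower atoh1b, a secretory cell factor (-0.63). The Hippo and Notch lists had 1 higher and 1 lower of 23 and of 34 genes, near the background. These counts were the same with library totals alone, where the background was 1.09% higher and 6.67% lower. The Hippo counts were 1 and 3 unadjusted and 1 and 2 with DESeq2, and the Notch counts 2 and 3 unadjusted and 1 and 0 with DESeq2. The Wnt list had 2 and 2 of 36, with the secreted Wnt inhibitor notum1a higher (1.9, edgeR adjusted p = 0.178) and the receptor fzd1 lower (-0.98, edgeR adjusted p = 0.245). Across settings notum1a ran from 0.29 to 2.11, and it was too low to pass the stricter filter. The Wnt counts were 2 and 3 unadjusted and 1 and 1 with DESeq2, and 1 and 3 stood apart with library totals alone. With 1 library left out these 3 lists had 1 to 3 higher and 1 to 5 lower, with the 5 in the Wnt list without SBM replicate 1. The counts of 3 came without 1 of the SBM or Drug replicates.

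Immune lists had 0 to 3 members apart in each direction. Among 46 pattern recognition and NF-kappaB genes 3 stood apart higher and 2 lower, among 28 interferon and antigen presentation genes 2 and 1, and among 44 cytokine and receptor genes 0 and 2. In the same order the counts were 6 and 3 unadjusted and 1 and 1 with DESeq2, 4 and 1 unadjusted and 0 and 0 with DESeq2, and 3 and 5 unadjusted and 0 and 2 with DESeq2. Scaled by totals alone, 1 stood apart higher and 4 lower, 0 and 1, and 0 and 3 in the 3 lists. With 1 library left out these counts ran from 3 to 6 and 2 to 4, from 2 to 6 and 0 to 2, and from 0 to 3 and 2 to 6, with the highest when SBM replicate 1, 2 or 3 or Drug replicate 1 or 2 was the one left out. The receptor tlr18 had 14.7, 16.7 and 18.8 CPM in SBM, against 3.33, 6.6 and 8.57 CPM in Drug libraries and 7.28, 8.94 and 10.7 CPM in FM libraries (log2 fold change 1.17, SE 0.26, adjusted p = 0.139). The interferon signal transducer stat1a had 274, 172 and 143 CPM in SBM, against 95.8, 127 and 119 CPM in Drug libraries and 140.0, 129 and 111 CPM in FM libraries (log2 fold change 0.71, SE 0.21, adjusted p = 0.218), highest in SBM replicate 1. The myeloid and B cell factor irf8 was on the lower side, with 7.16, 13.6 and 10.2 CPM in SBM, against 15.07, 15.096 and 15.6 CPM in Drug libraries and 13.8, 16.1 and 16.9 CPM in FM libraries (log2 fold change -0.58, SE 0.20, adjusted p = 0.265), and macrophage genes had a median of -0.21, which was -0.04 without FM replicate 3. The low receptor gene il1rl1 stood apart by values of 0.73, 0.603 and 0.596 CPM in SBM, against 0.824, 1.12 and 1.5 CPM in Drug libraries and 0.821, 0.923 and 11.3 CPM in FM libraries, with FM replicate 3 far above the other 8.

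In 5 lists of lipid, energy and cell cycle genes 0 to 2 members stood apart. Of 29 sterol biosynthesis genes, 0 stood apart in either direction, although their median log2 fold change over the other groups was 0.85. That median was 0.46 without SBM replicate 1, 1.22 without SBM replicate 2 and 0.72 with library totals alone. Unadjusted, 10 lay higher and 0 lower, DESeq2 called 6 higher and 0 lower, and edgeR with the replicate block called sqlea and msmo1 higher. The median was 2.14 against FM and -0.37 against Drug. Squalene epoxidase sqlea had 249, 80.4 and 305 CPM in SBM, against 567, 145 and 281 CPM in Drug libraries and 2.44, 0.527 and 1.94 CPM in FM libraries, so SBM and Drug overlapped and both lay above FM. Cell cycle genes had 0 of 65 apart higher and 2 lower, with medians of 1.65 against FM and -0.71 against Drug. Their counts were 0 and 2 unadjusted and 0 and 1 with DESeq2, and 0 and 4 stood apart with library totals alone. They summed to 412.3, 776.1 and 604.7 CPM in SBM replicates 1 to 3, against 734.2 to 1299 CPM in Drug and 420.7 to 486.9 CPM in FM. Their joint median was 0.77 without SBM replicate 1 and -0.12 without SBM replicate 2, so its sign turned. Oxidative phosphorylation had 0 of 49 apart, with medians of 0.48 against FM and -0.03 against Drug, and counts of 7 and 0 unadjusted and 3 and 0 with DESeq2. Lipid absorption genes, 0 of 30 apart, had medians of 0.30 against FM and -0.53 against Drug, and counts of 1 and 3 unadjusted and 0 and 1 with DESeq2. They summed to 15520, 4731 and 10000 CPM in SBM replicates 1 to 3, against 15990 to 21040 CPM in Drug and 3965 to 6886 CPM in FM. Their joint median was -0.28 without SBM replicate 1 and 0.26 without SBM replicate 2. Without Drug replicate 1, 8 oxidative phosphorylation genes stood apart higher, and without SBM replicate 1, 4 lipid absorption genes stood apart lower and 4 of fatty acid oxidation higher. Without the TMM factors no gene of the oxidative phosphorylation or fatty acid oxidation list stood apart, and 1 of lipid absorption stood apart lower. In fatty acid oxidation 1 of 39 stood apart, the very long chain dehydrogenase acadvl, at 226, 204 and 217 CPM in SBM, against 201, 166 and 175 CPM in Drug libraries and 79.6, 67.3 and 103 CPM in FM libraries, with Drug close under SBM. The counts of that list were 7 and 0 unadjusted and 3 and 0 with DESeq2. This gene rose against FM (1.37 on the log2 scale, edgeR adjusted p = 0.0283), and against Drug the difference was 0.26 (edgeR adjusted p = 0.58).

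A further 4 pathway lists had 0 to 2 members apart in each direction. Of 41 mRNA decay genes 1, pnrc2, stood apart higher and 1, the deadenylase parn, lower (-0.23), with counts of 2 and 1 unadjusted and 2 and 0 with DESeq2. Of 49 endoplasmic reticulum stress genes 2 stood apart higher and 2 lower, with counts of 6 and 3 unadjusted and 2 and 1 with DESeq2. The higher ones were ppp1r15b and the disulfide isomerase pdia3 (0.37), and the lower ones dnajb9a and ern1 (-0.58), which encodes the unfolded protein sensor IRE1. The mucin and goblet cell list had 0 higher and 1 lower of 15, the transcription factor gene atoh1b, with counts of 1 and 2 unadjusted and 1 and 0 with DESeq2. Brush border digestion had 0 of 33 apart, with counts of 3 and 2 unadjusted and 0 and 1 with DESeq2. First by p in that list was usp1, lower in SBM (log2 fold change -0.65 with the replicate block). It encodes a ubiquitin protease and not a digestive enzyme, so the lower counts of the list may not all concern digestion. The next member by p, slc7a9, was also lower (log2 fold change -1.27 with the replicate block). With library totals alone these 4 lists had 1, 1, 0 and 0 higher and 4, 4, 2 and 0 lower members. The highest counts with 1 library left out came without SBM replicate 1 in the first pair of lists, at 4 higher and 5 lower for mRNA decay and 6 and 7 for endoplasmic reticulum stress.

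Immediate early genes had 2 of 32 apart higher (klf11b and mafk) and 1 lower (myca), with a median of 0.38 and counts of 13 and 3 unadjusted and 8 and 1 with DESeq2. Their median was -0.23 without SBM replicate 1, the library where they were highest, so its sign turned, and 0.20 with library totals alone. It reached 0.69 when SBM replicate 2 was left out, 0.59 when SBM replicate 3 was, 0.71 when FM replicate 1 was, and 0.84 over the 25 members that pass the stricter filter. Without SBM replicate 2, 11 stood apart higher, and without Drug replicate 2, 6. With all 9 libraries the list median was 0.22 against FM and 0.87 against Drug. The member klf4 did not stand apart. It rose against FM (edgeR adjusted p = 0.0382) and missed against Drug (edgeR adjusted p = 0.231).

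**Figure D5:**
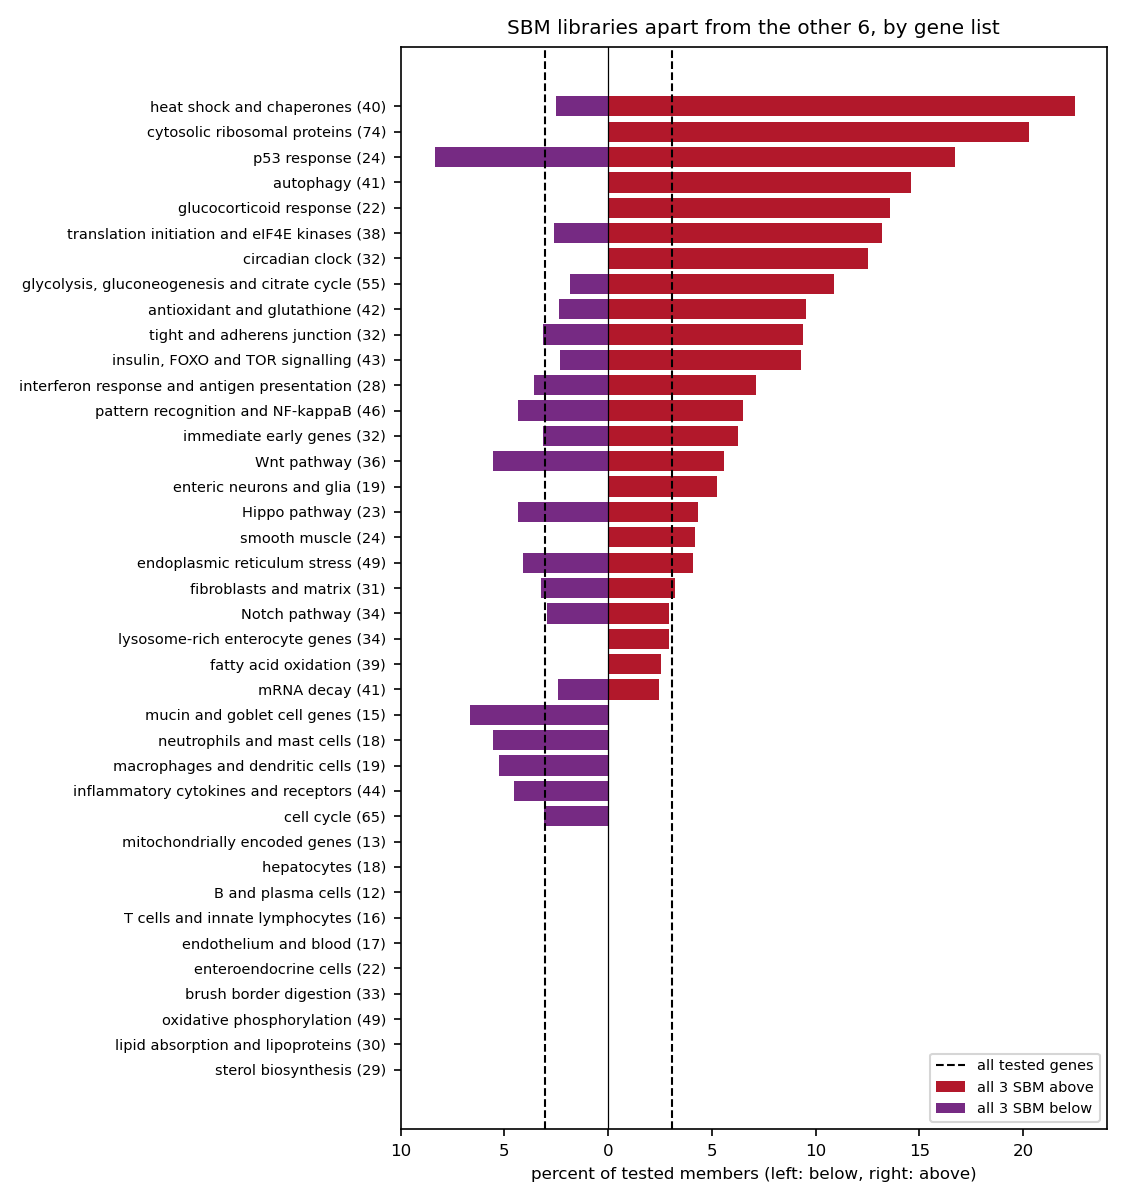
Bars give the percent of each list's tested members (number in brackets) with all SBM libraries above the other 6 (right, red) or below them (left, purple), for the 39 lists with at least 12 tested members. Dashed lines mark 3.08% and 3.06%, the shares among all tested genes. Chaperones, ribosomal proteins, p53 response and autophagy reach furthest right, of which ribosomal proteins have 0 and chaperones 2 higher members with library totals alone, and sterol biosynthesis, oxidative phosphorylation and lipid absorption have no bar.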

How the data were processed

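Total RNA of 9 intestine samples was extracted with TRIzol and made into libraries with the VAHTS Universal V6 kit, per the labels' protocols. Tools listed in the submitters' processing notes are HISAT2, HTSeq, fastp, R 3.2.0 and DESeq2, with mm10, a mouse assembly, as the build. The gene symbols are those of fish, and which genome served for alignment is not given in the sources consulted. The deposited count table holds whole-number read counts of 22344 genes, of which 8101 have only a LOC number. The deposited FPKM values were made by the authors from these counts and the library totals, with no further scaling: the relation held for all 15780 genes with at least 10 counts per library. Reads from alleles of the parent species, from near-identical gene copies and from antisense partners could be miscounted, and strand use in counting is not stated.

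The counts were fitted by the quasi-likelihood method of edgeR 4.0.16 under R 4.3.3 (robust, TMM factors, default expression filter) in 1 model of 3 groups, with 17731 genes tested and 6 residual degrees of freedom. The joint comparison was SBM minus the mean of Drug and FM. Tests were two-sided, with adjusted p under 0.05 as the threshold. CPM values are TMM-scaled, and SE was obtained by dividing the size of the log2 fold change by the square root of F. DESeq2 1.42.0 on counts and limma 3.58.1 on log2(FPKM + 1) and log2(FPKM + 0.1) were alternatives. The steps were tested on simulated counts. Replicate numbers come from the labels, which name no shared fish, batch or day. Deviations from the group means correlated at 0.155 to 0.318 in the 3 same-numbered pairs of SBM and FM, all over 0.1. In the other comparisons a pair fell below that, although SBM replicate 3 and Drug replicate 3 correlated highest, at 0.37. Whether the numbers pair the libraries is not known from the design. The main fits did not use them, and counts with the replicate number as a block are given beside. No replicate pair agreed within sampling noise, chi-square per degree of freedom being at least 49.0.

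The members and the 41 gene lists were chosen with earlier results of these data known. Leading genes had a name other than a LOC number, at least 5 CPM in 1 group and SBM apart: 12 per direction by smallest p, since fewer than 12 passed, and 5 per direction by widest gap after adding 0.5 CPM. Genes past the threshold in both pairwise comparisons were also named. Up to 5 list members by smallest p, and up to 2 cell type markers by level, were selected as well. Not all of these are given in the text, and many left out, such as dusp1, bhlhe40 and errfi1a, did not stand apart. Other list members that stood apart, and the chaperonin subunits as a group, were named after their values were seen.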

Additional observations from a re-analysis of the deposited data

How the results depend on the processing

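Limits: counts of calls move with the tool and with single libraries, the rule of non-overlap depends on the scaling, and depth limits only genes of low count. The 1 gene past the threshold in the joint comparison became 621 with DESeq2, 6 without a filter, 18 with the stricter filter, 0 with Drug and FM as 1 group, 0 with limma on log2(FPKM + 1), 14 when FM replicate 3 and SBM replicate 2 were both left out, and 0 to 37 with single libraries left out. Genes apart and past the threshold numbered 426, 5, 17, 0, 0 and 9 in the same order, and 0 to 36 with single libraries left out. Genes apart numbered 2493 without FM replicate 3 and SBM replicate 2, and 1336 to 3113 with single libraries left out. For SBM against FM, 105 became 1637 with DESeq2, 248 with the stricter filter, 49 and 69 with limma on FPKM plus 1 and plus 0.1, 330 without those 2 libraries, and 2 to 424 with single libraries left out. For SBM against Drug, 7 became 629 with DESeq2, 0 with library totals alone, 4 and 0 with limma, 0 without those 2 libraries and 0 to 36 with single libraries left out. For Drug against FM, 777 became 2455 with DESeq2, 1199 without those 2 libraries and 10 to 1711 with single libraries left out. The highest counts of calls, 37, 36, 424 and 1711, came without SBM replicate 1, and the cause was not tested. With the replicate number as a block the counts were 7 in the joint comparison, 4 of them apart, 295 against FM, 1 against Drug and 1293 for Drug against FM. Same-numbered libraries of different groups correlated above 0.1 in 7 of 9 pairs (0.0524 to 0.37). The exceptions were 1 pair of SBM and Drug and 1 of Drug and FM. Each library correlated best with its own number in 18 of 18 checks. The checks are not independent, since each pair is read from both its libraries and deviations within a group share 1 mean. They give at most a hint of pairing from the data and not from the design, and the main fits did not use it. No named gene had opposite signs in the main fit and in an alternative where either passed the threshold. List medians and the unnamed LOC125902655 were not part of that check, and some list medians turned sign, as given above. Of 779 list medians under alternatives, 54 moved by more than the SD of the list's median level across the 3 SBM libraries alone. Lists whose SBM libraries differ most could thus move furthest without being counted. Of 4289 values for 227 named genes, 130 passed the threshold that had not.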

Other observations

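Genes named here were chosen after their values were seen, from the 546 higher and 542 lower genes that stood apart, so they are given as single genes without a test and stand for no group. The zinc finger gene znf395a had 169.7, 363 and 342 CPM in SBM, against 5.83, 33.7 and 25.3 CPM in Drug libraries and 62.7, 71.8 and 108 CPM in FM libraries (log2 fold change 2.80), with Drug lowest. The ubiquitin ligase gene fbxo32, a FOXO target in wasting mammalian muscle, had 19.8, 57.1 and 29.9 CPM in SBM, against 2.42, 12.3 and 9.1 CPM in Drug libraries and 10.6, 11.7 and 8.99 CPM in FM libraries (log2 fold change 1.97). The phosphoinositide 3-kinase inhibitor pik3ip1 had 59.25, 125 and 129.6 CPM in SBM, against 18.9, 37.4 and 35.5 CPM in Drug libraries and 42.8, 35.1 and 57.8 CPM in FM libraries (log2 fold change 1.49), and its SBM replicate 1 was only just above the highest FM library. The epithelial growth factor areg, at 218, 83.6 and 103 CPM in SBM, against 57.4, 76.3 and 55.2 CPM in Drug libraries and 52.2, 46.7 and 42.6 CPM in FM libraries, and the anti-apoptotic gene mcl1b, at 742, 458 and 434 CPM in SBM, against 219, 258 and 247 CPM in Drug libraries and 415, 381 and 336 CPM in FM libraries, were highest in SBM replicate 1, the library with the most immediate early transcripts, whose part was not tested.

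On the lower side, the splicing factor rbm25b had 41.1, 29.2 and 32 CPM in SBM, against 44.1, 44.5 and 51.1 CPM in Drug libraries and 55.8, 65.3 and 62.8 CPM in FM libraries (log2 fold change -0.65). The splicing cofactor arglu1a had 25.5, 33.2 and 28.7 CPM in SBM, against 42.7, 38 and 46.7 CPM in Drug libraries and 44, 58.8 and 50.5 CPM in FM libraries (log2 fold change -0.68). For the serine-arginine-rich factors srsf2b and srsf5b and the splicing regulator tra2b the log2 fold changes were -0.50, -0.41 and -0.36. No list of splicing genes was counted, so how many others stood apart or lay the other way is not given. FM was above Drug without overlap for rbm25b, srsf2b and srsf5b, and the groups overlapped for arglu1a and tra2b.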
